A study of Mus musculus with 24 samples.

Results

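Chemokines are small secreted proteins that guide leukocytes through a gradient, and the genes described here are 31 of the 50 rows for chemokines, their receptors and related chemoattractant receptors among the 547 genes of the expression table. They were chosen by symbol. All rows named as CC, CXC, CX3C or XC ligands or receptors were taken, with the addition of Ccbp2, Ppbp, Cmklr1, Ltb4r1 and Ltb4r2, and 19 rows were left aside, among them Ccl5, Ccl25, Ccr9, Cxcl9 and Cxcl10. The 31 genes comprised 15 ligands, 13 signalling receptors and 3 atypical receptors. Expression was measured in the terminal ileum of C57BL/6 mice at week 7 of life with the nCounter assay, which counts colour-coded probes hybridized to RNA without amplification. The macrolide tylosin was given to nursing dams and reached the pups through milk. Mice of the PAT1 group had this single course (PAT stands for pulsed antibiotic treatment). Mice of the PAT3 group had it and 2 more after weaning, for 3 courses in all, and Control mice had none. The Control and PAT1 groups each had 7 mice, 4 males and 3 females, and the PAT3 group had 10, 4 males and 6 females. These numbers follow the sample labels, whereas the study's own description divides the treated mice differently between PAT1 and PAT3, so that the PAT group of a mouse may be uncertain. Whole litters entered a group and cages held mice of 1 sex and group, so that treatment cannot be told apart from litter and cage, and the p-values below treat each mouse as independent.

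In the gut, chemokines are made by epithelium, stroma, endothelium and leukocytes, and each receptor is carried by a restricted set of cells. Ccl11 and Ccl24 act on Ccr3 of eosinophils, and Ccl26 is grouped with them by name (the eotaxins). Ccl22 acts on Ccr4 of T helper 2 and regulatory T cells. Xcl1, released by activated natural killer and CD8+ T cells, acts on Xcr1 of cross-presenting dendritic cells. Cxcl1 and Cxcl3 act on Cxcr2 of neutrophils, and Cxcl12 acts on the broadly expressed Cxcr4. Atypical receptors such as Ccrl1 (current symbol Ackr4) and Ccbp2 (Ackr2) bind chemokines and remove them without signalling to migration.

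Values are log2 normalized counts. Total counts ranged from 171671 in PAT1 replicate 1 to 782392 in PAT1 replicate 7, and 12 of the 31 genes had a mean count under 20, so that counting error was a large part of their spread. Probe efficiency differs between genes, and levels are therefore compared between mice and not between genes. The median over all 547 genes was lower by 0.14 in PAT1 and by 0.19 in PAT3 than in Control, and re-centring the samples on it raised all changes by these amounts. Of the lymphocyte markers in the table, 7 of 7 T cell genes were lower in PAT3 and 2 of 7 in PAT1. The mean of the T cell markers ranged from 6.65 to 6.94 in Control, from 5.78 to 6.80 in PAT1 and from 5.12 to 6.18 in PAT3, and none of them was at 0. The log2 of their summed level ranged from 9.59 to 9.93, from 8.88 to 9.81 and from 8.26 to 9.13, respectively. In bulk tissue, fewer cells of a type and less RNA per cell cannot be told apart.

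Compared with Control, 6 of the 31 genes were called in PAT1 and 9 in PAT3 at an adjusted p under 0.05 (limma with Benjamini-Hochberg adjustment over the 547 genes). Over all genes of the table, 18.5% were called in PAT1 and 31.8% in PAT3, so that the shares of the chemokine genes were near those of the whole table. In PAT1, Ccl11 and Ccl6 were higher, and Ccl22, Ccr4, Cxcr6 and Xcl1 were lower (background 7.31% higher and 11.2% lower). In PAT3, Ccl11, Ccrl1 and Cxcl12 were higher, and Ccl22, Ccl4, Ccr4, Cxcl1, Cxcr6 and Xcl1 were lower (background 13.9% higher and 17.9% lower). Ccl11, Ccl22, Ccr4, Cxcr6 and Xcl1 were called in both regimens, which share their Control mice. The median change of the 31 genes was 0.01 in PAT1 and 0.04 in PAT3, beside 0.01 and 0.03 for all genes. Among the 19 rows left aside, 2 were higher and 5 lower in PAT1, and 2 were higher and 6 lower in PAT3. The 2 largest called falls there were those of Ccl8 (-1.75) and Cxcl9 (-1.34) in PAT1 and of Ccl5 (-1.97) and Cxcl9 (-1.95) in PAT3, and the called rises were those of Cxcl11 (1.20 and 1.25) and Ccl25 (1.13 and 0.81).

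**Figure D1:**
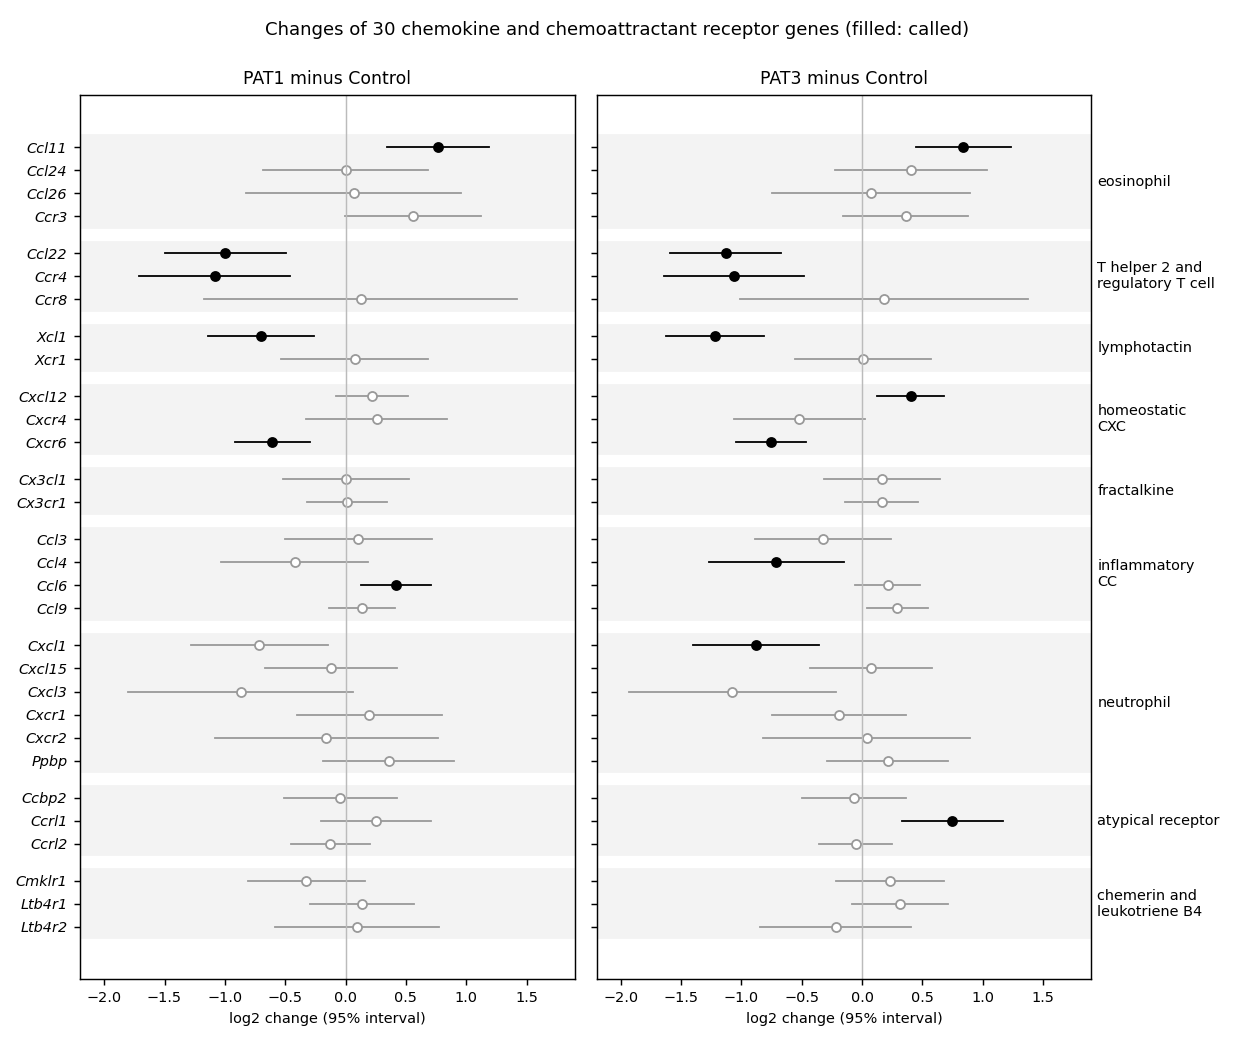
Log2 changes against Control (horizontal axis) with 95% intervals of 30 of the genes, ordered by the cells they act on, for PAT1 (left) and PAT3 (right). Filled black points mark the 6 genes called in PAT1 and the 9 called in PAT3; the falls of Ccl22, Ccr4, Xcl1 and Cxcr6 and the rise of Ccl11 stand in both panels.

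Among the eosinophil genes, the ligand Ccl11 was higher in both PAT groups, whereas Ccl24, Ccl26 and the receptor Ccr3 were not called. Ccl11, which is made mainly by stromal cells and recruits eosinophils, ranged from 7.67 to 8.61 (median 8.08) in Control, from 8.22 to 9.58 (median 8.90) in PAT1 and from 8.27 to 9.57 (median 8.87) in PAT3. All 7 PAT1 and all 10 PAT3 mice lay above the Control mean, and 5 and 8 of them lay above every Control mouse. The rise was 0.77 ± 0.21 (SE; adjusted p = 0.00902) in PAT1 and 0.84 ± 0.19 (adjusted p = 0.00154) in PAT3, or 1.70-fold and 1.79-fold. On the re-centred scale it was 0.91 and 1.03. Of the stroma and endothelium markers, none of 6 was higher in PAT1 and 2 of 6 in PAT3 (Pdgfrb by 0.73 and Fn1 by 0.61), with the log2 of the summed level at 10.80 to 11.54 in Control, 10.39 to 11.72 in PAT1 and 10.84 to 12.20 in PAT3, and none was at 0. Changes were below 0 for 5 of the 6 in PAT1 and for 2 of the 6 in PAT3 (Icam1 by -0.34 and Vcam1 by -0.18), none of them called. The part of these markers in the rise of Ccl11 was not tested.

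Ccr3 ranged from 3.26 to 5.07 (median 4.53) in Control, from 3.90 to 5.95 (median 4.84) in PAT1 and from 4.19 to 5.44 (median 4.63) in PAT3. The 3 groups overlapped widely, and the change was 0.56 in PAT1 (95% interval -0.01 to 1.12, adjusted p = 0.176) and 0.36 in PAT3 (-0.16 to 0.88, adjusted p = 0.285). The other eotaxins varied from mouse to mouse. The median count of Ccl24 was 16 for Control, 13 for PAT1 and 21.5 for PAT3, and its change was 0.41 in PAT3 (-0.23 to 1.04). Ccl26 was counted at most 5 times in any mouse, and no difference was detectable at this depth. The table held none of the 5 eosinophil markers sought (Il5ra, Prg2, Epx, Siglec5 and Siglecf), so that eosinophil content was not measured here.

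Of the T helper 2 and regulatory T cell genes, the ligand Ccl22 and its receptor Ccr4 were lower in both regimens, and Ccr8 was not called. The ligand Ccl22, made chiefly by dendritic cells and macrophages, ranged from 6.18 to 7.85 (median 6.76) in Control, from 5.11 to 6.69 (median 5.67) in PAT1 and from 5.30 to 6.11 (median 5.68) in PAT3. Every PAT3 mouse lay below every Control mouse, and 5 of 7 PAT1 mice did. The change was -0.997 ± 0.243 (SE; adjusted p = 0.00433) in PAT1 and -1.13 ± 0.22 (adjusted p = 0.000385) in PAT3, or a level 2.19-fold lower. The receptor Ccr4 ranged from 3.40 to 4.47 (median 3.60) in Control, from 1.86 to 3.30 (median 2.54) in PAT1 and from 0.68 to 3.35 (median 2.81) in PAT3. Neither PAT group overlapped with Control, and the changes were -1.09 ± 0.31 (adjusted p = 0.0124) and -1.06 ± 0.28 (adjusted p = 0.00517). Genes whose values did not overlap with Control made up 6.22% of the table in PAT1 and 9.32% in PAT3, against 1 (Ccr4) and 3 (Ccl22, Ccr4 and Cxcr6) of the 31.

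The fall of Ccr4 rested on low counts, since its median count was 16 for Control mice, 7 for PAT1 mice and 7.5 for PAT3 mice. Whether background had been subtracted was not stated, so that the share of background in such low counts was not known. Thinning every sample to the total of the shallowest left neither Ccr4 change called (adjusted p = 0.0637 and 0.281). Thinning was added after the data were seen, as a single random draw. It lowers the counts further, so that a call lost this way, here or below, cannot tell a false change from lost depth. With the methods' test of the study, Ccr4 missed the threshold in PAT1 (adjusted p = 0.0571). Among the dendritic cell markers, Irf8 was lower in both regimens (-0.52 and -0.53), whereas Itgax, Batf3 and Cd209g were not called; the log2 of their summed level was 10.36 to 10.71 in Control, 9.80 to 10.25 in PAT1 and 9.90 to 10.38 in PAT3. Of the monocyte and macrophage markers, 2 of 6 were lower in both regimens, Itgam (-0.92 and -0.68) and Msr1 (-0.61 and -0.46), with the log2 of the summed level at 10.33 to 10.91 in Control, 9.99 to 10.44 in PAT1 and 10.13 to 10.61 in PAT3. None of the markers of either cell type was at 0, and their part in the fall of Ccl22 was not tested. The other receptor of this class, Ccr8, had medians of 9, 10 and 13 counts and was not called, with wide intervals (-1.17 to 1.42 in PAT1 and -1.01 to 1.38 in PAT3).

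Xcl1, also known as lymphotactin, was the gene with the largest fall in PAT3 among the 31. It ranged from 6.18 to 7.04 (median 6.51) in Control, from 5.37 to 6.30 (median 5.89) in PAT1 and from 4.63 to 6.30 (median 5.24) in PAT3. The groups were ordered Control, PAT1 and PAT3 by their medians, and 6 of 7 PAT1 and 9 of 10 PAT3 mice lay below every Control mouse. The change was -0.70 ± 0.21 (SE; adjusted p = 0.0189) in PAT1 and -1.22 ± 0.20 (adjusted p = 3.21e-05) in PAT3, or a level 1.63-fold and 2.33-fold lower. The call in PAT1 was lost under 7 of 43 alternatives, among them re-centring (adjusted p = 0.0813), the methods' test (0.0686), thinning (0.123) and the omission of Control replicate 2 (0.0509). Its receptor Xcr1 ranged from 3.26 to 4.78 (median 4.24) in Control, from 3.45 to 4.77 (median 4.55) in PAT1 and from 3.27 to 5.42 (median 4.12) in PAT3. These ranges lay over each other, with changes of 0.08 (95% interval -0.53 to 0.69) and 0.01 (-0.56 to 0.57).

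Cxcr6, carried by effector and tissue-resident T cells and innate lymphocytes, fell in both regimens. It ranged from 6.91 to 7.27 (median 7.11) in Control, from 6.03 to 7.07 (median 6.39) in PAT1 and from 5.96 to 6.83 (median 6.32) in PAT3. The Control mice were the least variable group (SD 0.15), and 6 of 7 PAT1 mice and all 10 PAT3 mice lay below every one of them. The change was -0.61 ± 0.15 (SE; adjusted p = 0.00502) in PAT1 and -0.76 ± 0.14 (adjusted p = 0.000175) in PAT3. Xcl1 and Cxcr6 are both expressed by cytotoxic lymphocytes, and of the natural killer and cytotoxic markers 3 of 6 were lower in PAT1 and 5 of 6 in PAT3. The granzymes Gzma and Gzmb fell most (-2.52 and -2.33 in PAT3). The log2 of the summed level of these markers was 10.16 to 11.41 in Control, 8.61 to 10.71 in PAT1 and 8.09 to 10.07 in PAT3, and none was at 0. Beside the T cell markers given above, their part in the falls of Xcl1 and Cxcr6 was not tested.

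**Figure D2:**
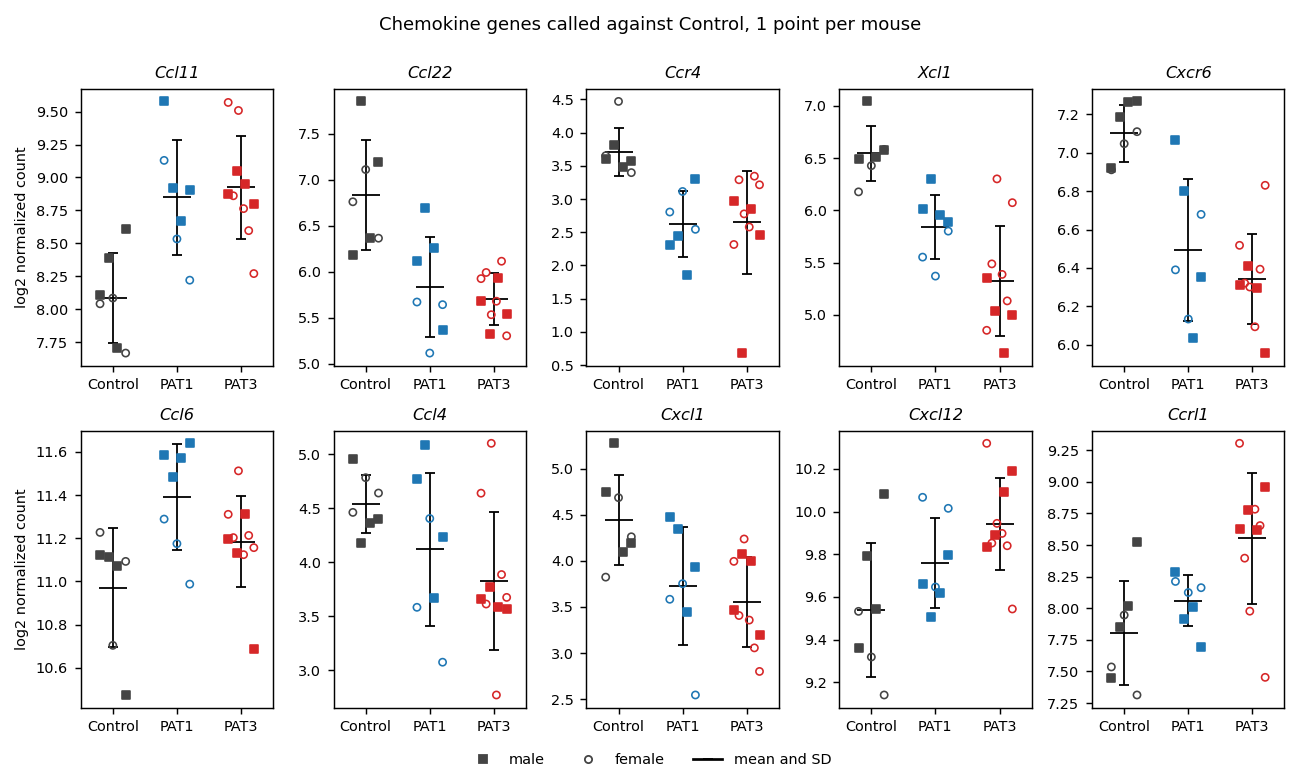
Log2 normalized counts (vertical axes) of the 10 genes called in PAT1 or PAT3, with 1 point per mouse (filled squares male, open circles female) and bars for the mean and SD of 7 Control, 7 PAT1 and 10 PAT3 mice. The PAT3 values of Ccl22, Ccr4 and Cxcr6 lie wholly below the Control values, whereas those of Ccl4, Cxcl12 and Ccl6 overlap with them.

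When the mean of the T cell markers was added to the model as a covariate, which was done after the data were seen, none of the 31 genes was called in any contrast. At an unadjusted p under 0.05, there were 7 in PAT1 and 0 in PAT3, and over all genes 93 and 4 were called. The marker mean did not overlap between PAT3 and Control, so that the model could hardly separate the marker from the group, and the standard error of the Xcl1 change rose from 0.20 to 0.34. In PAT3, the change of Cxcr6 went from -0.76 to -0.06, that of Xcl1 from -1.22 to -0.28, that of Ccrl1 from 0.75 to -0.05 and that of Cxcl12 from 0.40 to 0.10. The change of Ccl4 went from -0.71 to -0.19, that of Ccl22 from -1.13 to -0.86, that of Ccr4 from -1.06 to -0.80, that of Ccl11 from 0.84 to 0.62 and that of Cxcl1 from -0.88 to -1.02. All these intervals were wide and overlapped, from -1.81 to 0.08 for Ccl22 and from -0.54 to 0.42 for Cxcr6, and differences between the genes were not tested. With the mean of the B cell markers as a covariate 5 and 8 genes were called, and with that of the enterocyte markers 6 and 9.

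**Figure D3:**
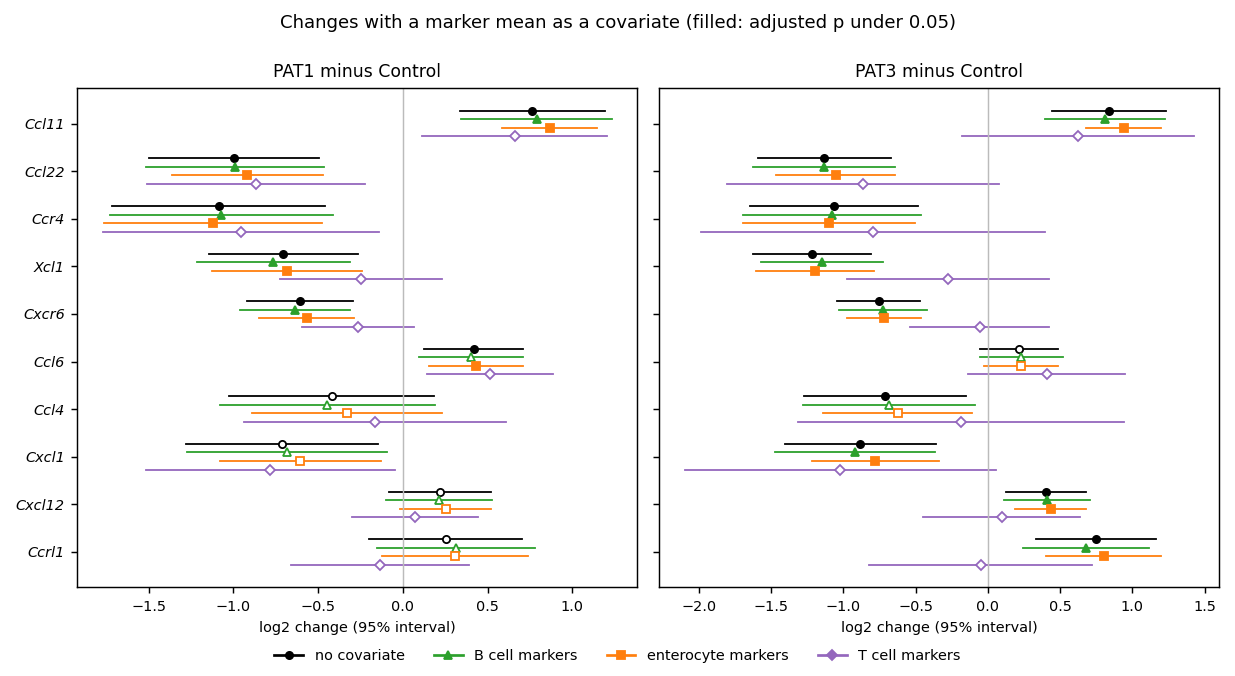
Log2 changes against Control (horizontal axis, with 95% intervals) of the 10 called genes in PAT1 (left) and PAT3 (right), without a covariate and with the mean of B cell, enterocyte or T cell markers in the model; filled symbols mark an adjusted p under 0.05. With the T cell markers no symbol is filled, and the PAT3 change of Cxcr6 moves from -0.76 to -0.06 and that of Ccl22 from -1.13 to -0.86, with intervals that overlap.

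Of the 6 genes that act on neutrophils, Cxcl1 was lower in PAT3 and the others were not called. Cxcl1, an inducible ligand of epithelium and stroma, ranged from 3.82 to 5.27 (median 4.26) in Control, from 2.54 to 4.48 (median 3.75) in PAT1 and from 2.80 to 4.24 (median 3.43) in PAT3. All 10 PAT3 mice lay below the Control mean and 6 lay below every Control mouse. The change was -0.88 ± 0.25 (SE; adjusted p = 0.00896) in PAT3 and -0.71 ± 0.28 in PAT1 (adjusted p = 0.0707), at medians of 20, 12 and 12.5 counts. After thinning to the shallowest sample, Cxcl1 was no longer called in PAT3 (adjusted p = 0.0888).

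The related Cxcl3 just missed the threshold in PAT3. It ranged from 2.65 to 3.89 (median 3.26) in Control, from 0.00 to 3.90 (median 3.01) in PAT1 and from 1.22 to 2.78 (median 2.14) in PAT3, and its change was -1.08 ± 0.42 (adjusted p = 0.0504). All 10 PAT3 mice lay below the Control mean, but at a median of 5 counts. Cxcl3 stayed uncalled in PAT3 under 25 of 42 alternatives. It was called, among others, with the exact permutation test (adjusted p = 0.00256) and in males alone (0.00286). In PAT1 the change of Cxcl3 was -0.87 (95% interval -1.80 to 0.06). The receptor Cxcr2 ranged from 1.36 to 3.46 (median 2.43) in Control, from 0 to 4.32 (median 2.43) in PAT1 and from 1.58 to 3.36 (median 2.57) in PAT3, with a change of 0.04 in PAT3 (95% interval -0.82 to 0.89). The remaining ligands Cxcl15 and Ppbp (pro-platelet basic protein) and the receptor Cxcr1 changed by -0.19 to 0.36, and none was called. Of the neutrophil markers, none of 4 was lower in PAT1 and 1 of 4 (S100a9, -0.96) in PAT3. Changes were below 0 for 3 of the 4 in each regimen, whereas Camp changed by 0.86 in PAT1 and 0.81 in PAT3 and was not called. The log2 of their summed level was 5.76 to 6.82 in Control, 5.50 to 6.42 in PAT1 and 4.91 to 6.30 in PAT3. Camp was at 0 in 1 mouse, and the part of these markers in the fall of Cxcl1 was not tested.

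Cxcl3, Cxcl15 and Cxcl1 lie next to each other in RefSeq (assembly GRCm38.p6). The 250 bases before the starts of Cxcl1 and Cxcl3 are shown because these ligands had the lowest changes of the neutrophil genes. They cover chr5:90890995-90891244 and chr5:90785851-90786100, each on the + strand and written 5′ to 3′. Capitals mark matches on either strand to GGGNNNNNCC, the general form of an NF-kappaB site, and to TATAAA, overlapping matches joined.
Cxcl1: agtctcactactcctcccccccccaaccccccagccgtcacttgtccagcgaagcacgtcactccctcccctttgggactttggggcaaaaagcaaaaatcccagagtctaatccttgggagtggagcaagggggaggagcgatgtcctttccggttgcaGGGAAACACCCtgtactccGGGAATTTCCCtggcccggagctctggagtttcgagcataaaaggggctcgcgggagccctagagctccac
Cxcl3: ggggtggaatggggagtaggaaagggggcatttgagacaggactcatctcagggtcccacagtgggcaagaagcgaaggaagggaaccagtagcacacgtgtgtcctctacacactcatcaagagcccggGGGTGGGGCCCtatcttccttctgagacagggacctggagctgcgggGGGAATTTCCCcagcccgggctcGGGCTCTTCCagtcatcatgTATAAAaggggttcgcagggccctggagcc

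The general form GGGNNNNNCC was found in 14 of 27 promoters of these genes (25 genes had one in the table) and in 45.8% of all 32851 promoters. TATAAA was found in 8 of 27 and in 12.4%. TTCNNNGAA and TTCNNNNGAA, the general forms of STAT sites, were found in none of the 27, and in 7.02% and 5.85% of all. The longest run of letters that the promoters of Cxcl1 and Cxcl3 share is GGGAATTTCCC, which begins 71 bases before the start of Cxcl1 and 73 before that of Cxcl3. It was sought after the sequences were seen, stands in none of the other promoters of these genes, and was found in 14 of all 32851. A match is a description of the letters and not a bound site.

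Of the 4 inflammatory CC ligands, Ccl6 was higher in PAT1 and Ccl4 lower in PAT3, while Ccl3 and Ccl9 were not called. Ccl6, a chemokine of myeloid cells, ranged from 10.47 to 11.23 (median 11.09) in Control, from 10.99 to 11.64 (median 11.48) in PAT1 and from 10.69 to 11.51 (median 11.20) in PAT3. Its rise was 0.42 ± 0.14 (SE; adjusted p = 0.0393) in PAT1 and 0.21 ± 0.13 (adjusted p = 0.222) in PAT3, and 5 of 7 PAT1 mice lay above every Control mouse. On the re-centred scale Ccl6 was also called in PAT3 (0.40, adjusted p = 0.0402), as was its neighbour Ccl9 (0.48, adjusted p = 0.00875, against 0.29 and adjusted p = 0.0713 as deposited). Ccl9 stayed uncalled in PAT3 under 36 of 43 alternatives. It was called, among others, with sex as a covariate (adjusted p = 0.0164) and with the exact permutation test (0.00901). The PAT1 call of Ccl6 was lost under 16 of 43 alternatives, among them quantile normalization (adjusted p = 0.306), the methods' test (0.0686), thinning (0.0651) and the omission of any of 6 single mice.

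Ccl4, released by activated lymphocytes and macrophages, ranged from 4.18 to 4.95 (median 4.46) in Control, from 3.08 to 5.09 (median 4.24) in PAT1 and from 2.77 to 5.10 (median 3.67) in PAT3. In PAT3, 8 of 10 mice lay below every Control mouse and 1 lay above them all. The change of -0.71 ± 0.27 (SE) passed the threshold narrowly (adjusted p = 0.0467) and was not called under 25 of 42 alternatives, 15 of them the omission of 1 mouse. Ccl3, which lies next to Ccl4 in the genome, changed by 0.11 in PAT1 and -0.32 in PAT3 (-0.88 to 0.24).

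Cxcl12, a stromal chemokine that retains lymphocytes and progenitors, was higher in PAT3. It ranged from 9.14 to 10.08 (median 9.53) in Control, from 9.51 to 10.07 (median 9.66) in PAT1 and from 9.54 to 10.32 (median 9.89) in PAT3. All 10 PAT3 mice lay above the Control mean, but only 3 lay above every Control mouse. The rise was 0.40 ± 0.13 (SE; adjusted p = 0.0238) in PAT3 and 0.22 ± 0.15 (adjusted p = 0.341) in PAT1, and 0.59 in PAT3 on the re-centred scale. Of the stroma and endothelium markers given above, 2 of 6 (Pdgfrb and Fn1) were higher in PAT3 and 0 of 6 in PAT1. In PAT3 the changes of 2 of the 6 were below 0, and the part of these markers in the rise of Cxcl12 was not tested. Cxcl12 was not called after quantile normalization (adjusted p = 0.151), in males alone (0.233), in females alone (0.0771) or without Control replicate 1, 6 or 7 (0.0525 to 0.0633). Its receptor Cxcr4 ranged from 6.26 to 7.32 (median 6.92) in Control, from 5.99 to 8.68 (median 6.83) in PAT1 and from 6.02 to 6.78 (median 6.19) in PAT3. All 10 PAT3 mice lay below the Control mean, with a change of -0.52 ± 0.26 (adjusted p = 0.129). The most variable group was PAT1 (SD 0.93), in which the B cell marker mean also varied most, from 4.44 to 8.64, and replicate 7 had the highest value of both.

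Of the 3 atypical receptors, Ccrl1, which removes Ccl19, Ccl21 and Ccl25, was higher in PAT3. It ranged from 7.31 to 8.52 (median 7.85) in Control, from 7.70 to 8.29 (median 8.12) in PAT1 and from 7.45 to 9.30 (median 8.64) in PAT3. In PAT3, 7 of 10 mice lay above every Control mouse, and replicate 10 lay below the Control mean. The rise was 0.75 ± 0.20 (SE; adjusted p = 0.00615) in PAT3 and 0.25 ± 0.22 (adjusted p = 0.470) in PAT1. Ccbp2, which removes inflammatory CC chemokines, and Ccrl2, which presents chemerin, changed by -0.12 to -0.04 and were not called.

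**Figure D4:**
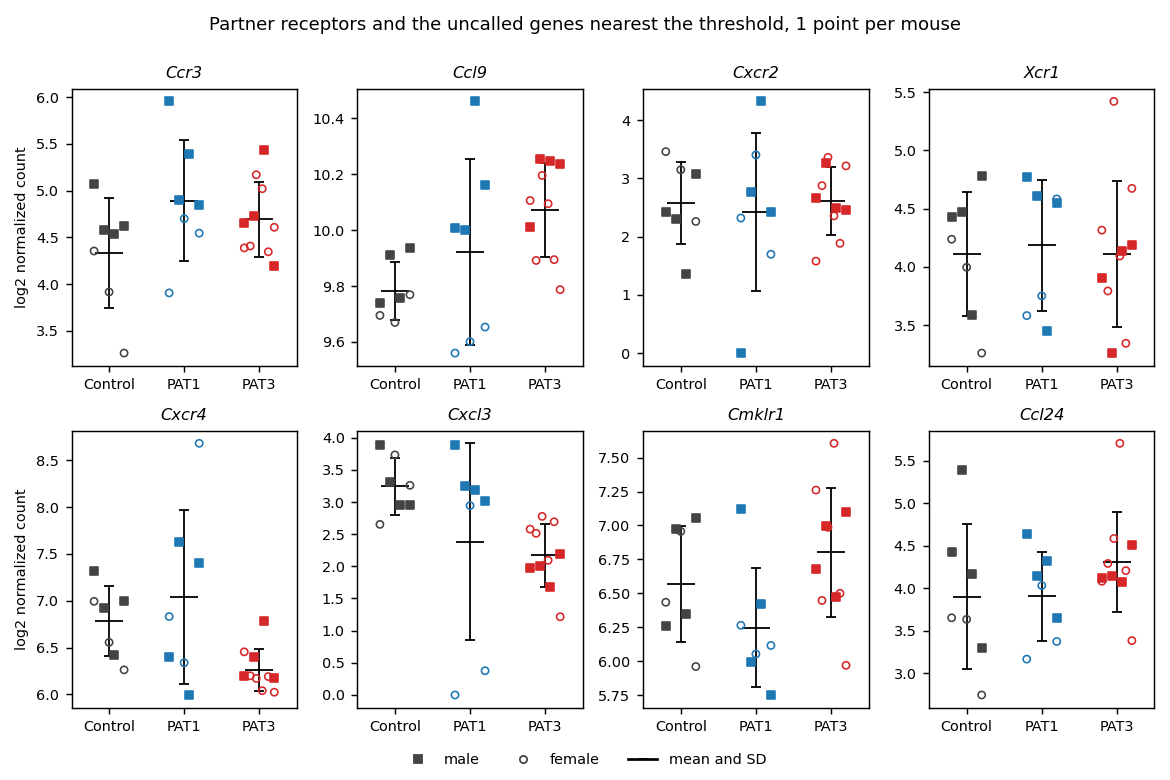
Log2 normalized counts (vertical axes) of partner receptors and of uncalled genes near the threshold, with 1 point per mouse (filled squares male, open circles female) and bars for the mean and SD of 7 Control, 7 PAT1 and 10 PAT3 mice. The groups overlap in every panel; all PAT3 values of Cxcr4 and Cxcl3 lie below the Control mean.

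The receptors for chemerin (Cmklr1) and leukotriene B4 (Ltb4r1 and Ltb4r2) were not called in either regimen. Cmklr1, found on dendritic cells and macrophages, ranged from 5.96 to 7.05 (median 6.43) in Control, from 5.75 to 7.12 (median 6.12) in PAT1 and from 5.97 to 7.61 (median 6.83) in PAT3. Its change was -0.32 in PAT1 and 0.23 in PAT3, and 0.56 ± 0.22 between the PAT groups (adjusted p = 0.0978).

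To assess whether the regimens differed, PAT3 was compared with PAT1 directly. The later courses of PAT3 also came at an older age and nearer to tissue collection. The number of courses therefore cannot be told apart from age at exposure and time since the last course. None of the 31 genes was called (limma), beside 4.2% of all genes, and 4 had an unadjusted p under 0.05 (28.5% of all genes). These were Cxcr4 (-0.78 ± 0.26, SE; adjusted p = 0.0662), Xcl1 (-0.51 ± 0.20; adjusted p = 0.0978), Cmklr1 and Ccrl1 (0.49 ± 0.20; adjusted p = 0.111). Under other settings 0 to 4 genes were called, the most with sample weights, and the methods' test called 0. The intervals of the shared falls were wide enough to hold sizeable differences between the regimens, from -0.60 to 0.33 for Ccl22 and from -0.56 to 0.60 for Ccr4. Over the 3 groups, the moderated F-test called Ccl11, Ccl22, Ccr4, Ccrl1, Cxcl1, Cxcr6 and Xcl1, 7 of 31 genes beside 34.6% of the table.

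Both sexes were present in every group. None of the 31 genes was called between the sexes (limma, beside 0.366% of the table). An unadjusted p under 0.05 was found for 4 (12.9%), near the share of 11.7% over all genes. Ltb4r1, the high-affinity leukotriene B4 receptor of leukocytes, came nearest, at 0.53 ± 0.13 (SE) higher in females (adjusted p = 0.0507). Female means exceeded male means in each group, at 5.89 and 5.30 in Control, 5.97 and 5.46 in PAT1, and 6.07 and 5.56 in PAT3. Ltb4r2 was likewise higher in females (0.55 ± 0.24, adjusted p = 0.390), and Ccl9 (-0.28 ± 0.09, adjusted p = 0.171) and Ccr3 (-0.55 ± 0.18, adjusted p = 0.195) were lower. No PAT effect was called as different between the sexes (0.183% of the table), and 3 genes had an unadjusted p under 0.05 (18.3% of all genes). The smallest was that of Cxcl3 (adjusted p = 0.164), for which the mean was 3.34 in male and 1.11 in female PAT1 mice. That female mean came from 3 mice (SD 1.60), and Cxcl3 was counted only 1 to 9 times in PAT1 mice. For Xcl1 (adjusted p = 0.216), the means were 5.01 in male and 5.54 in female PAT3 mice, beside 6.66 and 6.40 in Control.

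Ligands and receptors were then compared across the 24 mice as deviations from the group mean, for the 12 pairs with both genes in the table. By Pearson correlation, 5 pairs passed an adjusted p of 0.05, and by Spearman correlation 0 did (100000 two-sided permutations within groups). Ccl24 and Ccr3 rose and fell together (r = 0.59, permutation p = 0.00422, adjusted p = 0.0169; rho = 0.60, permutation p = 0.00438, adjusted p = 0.0526), and r was 0.67 without the 2 mice farthest from the median of Ccl24. Xcl1 and Xcr1 had r = 0.53 (permutation p = 0.0131, adjusted p = 0.0376; rho = 0.43, permutation p = 0.0418, adjusted p = 0.176), but r fell to 0.26 without 2 mice. Ccl22 and Ccr4, which were lower together in both PAT groups, did not vary together within groups (r = 0.0523, permutation p = 0.777, adjusted p = 0.848; rho = 0.00435, permutation p = 0.986, adjusted p = 0.986). With the size factor removed only 1 pair passed, although r was still 0.53 for Ccl24 and Ccr3 (permutation p = 0.0219, adjusted p = 0.0880) and 0.47 for Xcl1 and Xcr1 (permutation p = 0.0246, adjusted p = 0.0880).

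That pair was fractalkine, Cx3cl1, a membrane-bound chemokine of epithelium and endothelium, with its receptor Cx3cr1 of intestinal macrophages (r = -0.65, permutation p = 0.000770, adjusted p = 0.00924; rho = -0.34, permutation p = 0.118, adjusted p = 0.203; -0.48 without 2 mice). On re-centring the pair did not pass (r = -0.39, permutation p = 0.0890, adjusted p = 0.214; -0.12 without 2 mice), whereas Ccl24 and Ccr3 did (r = 0.61, permutation p = 0.00236, adjusted p = 0.0142). Neither gene was called in a treatment contrast, with changes of 0.01 to 0.16. The 5 mice with the lowest Cx3cl1, 2 Control, 1 PAT1 and 2 PAT3, were set apart after the values were seen. In them Cx3cl1 was 8.39 to 9.47 and Cx3cr1 was 7.80 to 8.12. In the other 19 mice Cx3cl1 was 9.63 to 10.34 and Cx3cr1 was 7.00 to 7.66, and among these r was 0.37 (permutation p = 0.176, and rho = 0.39, permutation p = 0.122). Because the split was made on Cx3cl1 itself, it narrows the range of Cx3cl1, and this r cannot show what the correlation rested on. The same 5 mice had the 5 lowest means of the enterocyte markers, 11.46 to 12.17 against 12.56 to 13.52 in the others. This coincidence was noticed after the values were seen, and the part of the epithelial share of the tissue piece was not tested. The enterocyte markers were Abcb1a, Dpp4, Ceacam1 and Btnl1, and they did not move together with treatment. Ceacam1 was called lower in PAT1 (-1.26) and PAT3 (-1.05), Btnl1 higher in PAT1 (0.94) and Abcb1a higher in PAT3 (1.01), whereas Dpp4 was not called.

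**Figure D5:**
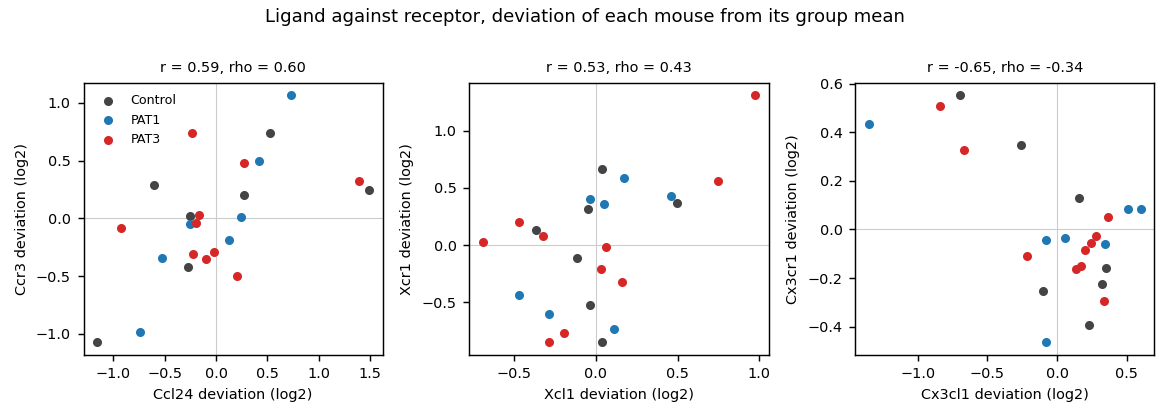
Deviation of each of the 24 mice from its group mean (log2) for a ligand (horizontal axes) and its receptor (vertical axes), coloured by group. Ccl24 and Ccr3 rise together (r = 0.59), whereas Cx3cl1 and Cx3cr1 have a negative slope (r = -0.65), with some mice at the upper left.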

How the data were processed

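The authors normalized nCounter counts with DESeq2 and deposited log2 values of 547 genes in 24 samples; the version was not given in the sources used here. The deposited log2 values gave back whole counts per sample (100% of values above 0, tolerance 0.01), with a count of 0 listed as 0. Whether background was subtracted was not stated. The labels name TRIzol with an RNeasy column for extraction, the methods a Qiagen kit. Groups and sex came from the labels, and replicate numbers follow sample order. Genes were tested with limma 3.58.1 (R 4.3.3, lmFit and eBayes) on all samples without covariates, filter or pseudocount, with Benjamini-Hochberg adjustment over 547 genes and a threshold of 0.05. The methods' test is aov with TukeyHSD per gene. On simulated data with 547 genes and the PAT3 minus Control contrast, the fit was checked for recovery of known changes. Genes called in any contrast, their partners and the 3 uncalled genes with the smallest F-test p are given in full. Members, lists and tests were chosen with earlier results of these data known. Promoters are RefSeq (GRCm38.p6). Symbols matched RefSeq as current (29) or older names (2). All 276 sample pairs differed beyond counting noise. Of the 31 genes, 1 that was not called, and the pairs it belongs to, are counted but not reported here.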

Additional observations from a re-analysis of the deposited data

Results flagged for a closer look

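In 93 sets of a gene in a group, 8 held a mouse far from the others by Dixon's test, and chance flags about 1 in 20 sets. Of these, 2 were in PAT1 replicate 1, the shallowest sample, in which Ccbp2 was the highest of its group at 5.40 (17 counts) and Cx3cl1 the lowest at 8.39 (135 counts). PAT3 replicate 2 was the lowest of its group for Ccr4 at 0.68 (2 counts) and for Ccr8, listed at 0 (0 counts). Ccr4 was highest in Control replicate 6 at 4.47 (25 counts). In PAT3, Ccl24 was highest in replicate 8 at 5.70 (61 counts), Ccl6 was lowest in replicate 4 at 10.69 (1804 counts), and Ltb4r2 was lowest in replicate 3 at 2.85 (9 counts). The calls of Ccr4 were kept without any 1 mouse.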

How the results depend on the processing

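The 6 genes called in PAT1 became 1 in males alone, 1 in females alone, 3 with the methods' test, 3 after thinning and 0 with T cell markers as a covariate, and 5 to 7 without 1 mouse, but 9 with the size factor as a covariate. The 9 in PAT3 became 1 in females alone and 0 with T cell markers, and 7 to 11 without 1 mouse, but 10 with the size factor and 12 with sample weights, with the exact permutation test and with only the 2 groups in the fit. With the T cell markers the change of Ccrl1 in PAT3 turned to -0.0509 (adjusted p = 0.967). For PAT3 minus PAT1, 1 gene was called on re-centring, with low genes left out, with the enterocyte covariate and with voom weights, 3 in males alone and 4 with sample weights; without 1 mouse it was 0 to 3 (3 without PAT3 replicate 10, 2 without PAT1 replicate 6, 1 without PAT1 replicate 3 or PAT3 replicate 7). The F-test count of 7 became 11 with a pseudocount of 10, 11 with the size factor as a covariate, 14 with sample weights, 1 in females alone, 0 with T cell markers, and 6 to 9 without 1 mouse. Between the sexes 1 gene was called with a pseudocount of 10, with low genes left out, with the size factor and with a trended prior, and 0 to 1 without 1 mouse; for the interaction it was 0 to 1 (1 without PAT1 replicate 6). On re-centring 2 genes were higher and 3 lower in PAT1, and 5 and 5 in PAT3. After quantile normalization these were 1 and 5, and 3 and 6. Of 5 pairs, 3 passed on re-centring and 1 with the size factor removed. No paired analysis was made, because the groups held different mice from different litters, and the labels carry no replicate numbers. With the 12 genes of a mean count under 20 left out, 6 were called in PAT3, since Ccl4, Ccr4 and Cxcl1 were among those left out.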
